A study of Mus musculus with 24 samples.

Results

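The genes of sterol synthesis and of its control by the transcription factor SREBP2 were followed in oligodendrocytes (OLs) and in whole spinal cord tissue after contusive spinal cord injury (SCI). They are 26 of the 21965 genes in the count table, and were taken by symbol from the textbook pathway: 8 enzymes of the mevalonate steps, 3 of squalene synthesis and ring closure, 9 of sterol modification, 5 genes of SREBP2 control and the sterol carrier Stard4. The rule uses no measured value, although earlier results of these data were known when it was set, and all 26 had enough counts to be tested (at least 81 in each library). The mice of every group, naive controls included, carried rpl22HA and a Cre transgene. In this OL-Ribotag design the tamoxifen-inducible Cre, driven by the promoter of a myelin gene, adds an HA tag to the ribosomal protein RPL22 in cells where that promoter is active, and RNA bound to tagged ribosomes (OL RNA) was pulled down from the same homogenate that gave the total RNA. The injured groups received a T9 contusion (IH impactor, 50 kdyn) as females of 10 to 12 weeks by the labels (the study's methods give another age) and were studied on dpi (days post-injury) 2, 10 and 42, and the naive group was uninjured. By the study's methods, naive tissue was collected on the same day as that of dpi 42, at the same age and time after tamoxifen. Naive mice were thus older, and longer past induction, than those of dpi 2 and dpi 10. In these comparisons injury cannot be told apart from age and time since induction. Each of the 8 groups (OL and total RNA of naive, dpi 2, dpi 10 and dpi 42) has 3 libraries, each from tissue pooled from a pair of mice. Errors and p-values thus describe the spread between pools, estimated for each gene over all groups together. Comparisons of OL with total RNA treated the libraries of a pool as independent, except where a block by tissue pool is named.

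Cholesterol is built from acetyl-CoA through mevalonate, isoprenoid diphosphates, squalene and lanosterol, and OLs use large amounts of it as a main lipid of myelin. Since blood lipoproteins hardly cross into the central nervous system, nearly all of this cholesterol is made locally. SREBP2 is held in the endoplasmic reticulum by SCAP and the INSIG proteins when sterols are plentiful, and when they are scarce it moves to the Golgi, is cut by the site-1 and site-2 proteases and switches on the enzymes of the pathway, often together with the factors NF-Y and Sp1.

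RefSeq promoter windows (GRCm38.p6, 250 bases before to 50 after a start site) were found for 22 of the 26 genes, 28 windows in all. The sterol regulatory element core TCACNCCAC, searched on both strands, occurred in 1 of the 28 windows (3.57%), that of Hmgcs1, and in 1.24% of all 32851 windows. The NF-Y box CCAAT occurred in 19 windows (67.9%, against 37.4% of all windows) and the Sp1 box GGGCGG in 23 (82.1%, against 35.7%). The windows of Hmgcs1, Insig1 and Insig2 are shown because Hmgcs1 held the sterol element core and the INSIG genes changed in opposite directions in OLs on dpi 42. The rise of Insig2 on that day was lost in 12 of 35 alternative settings. Capitals mark the sterol element core and the CCAAT box on either strand.
Hmgcs1, chr13:119690101-119690400, plus strand: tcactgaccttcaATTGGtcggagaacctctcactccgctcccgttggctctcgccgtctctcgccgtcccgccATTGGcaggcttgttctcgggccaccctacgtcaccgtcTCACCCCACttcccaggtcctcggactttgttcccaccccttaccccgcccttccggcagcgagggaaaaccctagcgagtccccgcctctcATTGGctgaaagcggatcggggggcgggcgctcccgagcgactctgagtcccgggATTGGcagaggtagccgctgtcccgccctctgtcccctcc
Insig1, chr5:28071162-28071461, plus strand: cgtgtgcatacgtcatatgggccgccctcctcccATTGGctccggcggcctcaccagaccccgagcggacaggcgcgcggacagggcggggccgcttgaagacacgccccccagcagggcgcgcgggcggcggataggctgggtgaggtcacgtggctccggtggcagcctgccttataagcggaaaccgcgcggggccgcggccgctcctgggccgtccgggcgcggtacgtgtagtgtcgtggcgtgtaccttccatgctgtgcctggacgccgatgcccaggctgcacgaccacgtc
Insig2, chr1:121327629-121327928, minus strand: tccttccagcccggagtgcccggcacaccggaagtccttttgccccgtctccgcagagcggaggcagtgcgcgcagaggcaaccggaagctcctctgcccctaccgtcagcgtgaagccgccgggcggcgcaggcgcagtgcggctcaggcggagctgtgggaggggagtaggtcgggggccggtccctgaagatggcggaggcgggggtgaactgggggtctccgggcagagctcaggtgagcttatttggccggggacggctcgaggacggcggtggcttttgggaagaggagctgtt
The Hmgcs1 window holds 4 CCAAT boxes, with the sterol element core starting 137 bases before the start site, and the Insig1 window holds 1. The Insig2 window shown holds none of either motif, while another of its 3 windows, at the annotated start of the gene, holds 3 CCAAT boxes. Of the genes that fell in OLs on dpi 42, 14 of 16 with a window had a CCAAT box, and of those that did not fall, 5 of 6 had one. Counted by gene in the same way, 41.1% of all 27025 genes had one. Fdps, Fdft1, Sqle and Stard4, which also fell, had no window.

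The libraries held 25840127 to 32987841 counts. For 2 libraries of dpi 42 (OL replicate 1 and total replicate 2, from the same tissue pool by the column names) the title and source disagree with the description about the kind of RNA. They were grouped by the description, which the column names follow, and the results for dpi 42 are also given without them. Both libraries of dpi 2 pool 2 held 2414 to 2604 counts on 4 Y-linked genes, against at most 13 in the 22 other libraries, which goes against the label of female mice. All 8 OL markers tested (among them Mbp, Mag and Mog) had a higher level in OL RNA than in total RNA in each of the 4 groups, with median log2 fold changes of 2.59 to 2.70, while all 5 neuron markers and all 6 microglia and macrophage markers were lower. Naive OL replicate 3 differed from the other naive OL libraries in the summed level of 4 Schwann cell markers (634 CPM, counts scaled to library size, against 1.6 and 1.73) and of 5 astrocyte markers (4488 against 791 and 983). Its sterol genes were also lower, with a median log2 ratio of -0.24 to the naive OL mean. Schwann cell and astrocyte markers were not lower in OL RNA throughout. The paper states that this Cre line is active in Schwann cells too, and that a small part of the tagged ribosomes may be theirs. Changes given here as in OLs are changes in OL RNA. The Schwann cell sum was 852 to 1519 CPM in OL and 175 to 367 in total RNA on dpi 10. On dpi 42 it was 1196 to 1389 against 267 to 661. The astrocyte sum was 1655 to 10867 CPM in OL and 4707 to 6350 in total RNA on dpi 42. On dpi 10 it was lower in OL RNA (1686 to 5293 against 5834 to 6452). The marker sums of the 2 libraries whose labels disagree were those of the kind of RNA in their descriptions. OL replicate 1 of dpi 42 had 103467 CPM of OL markers and 218 of neuron markers, and total replicate 2 had 23342 and 5914. In the other dpi 42 libraries, neuron markers summed to 248 and 339 CPM in OL RNA and 4114 and 3890 in total RNA.

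In naive cord, most genes of sterol synthesis were enriched in OL RNA. OL enrichment (the log2 fold change of OL over total RNA) passed 0.5 with q under 0.05 for 20 of the 26 genes, where q is the p-value of edgeR's quasi-likelihood test adjusted by Benjamini-Hochberg over 17167 genes. Of all tested genes, 21.7% were enriched to this degree. The median over the 26 genes was 1.22, against -0.27 over all genes. Hmgcs1, which makes the precursor of mevalonate, had the highest enrichment (2.19 ± 0.19, SE, q = 1.96e-09) and Dhcr7, which acts in the last part of the pathway, nearly the same (2.18 ± 0.13, q = 8.51e-12). Lss, the enzyme that closes the sterol ring, had 1.95 ± 0.14 and the sterol isomerase Ebp 1.94 ± 0.15. Enrichment was smaller for Srebf2, the gene of SREBP2 (1.16 ± 0.09), and for Scap (1.28 ± 0.10). The 2 genes depleted from OL RNA (28.6% of all genes were) were Ggps1, whose product leads away from sterols to geranylgeranyl groups (-0.80 ± 0.14, q = 6.64e-05), and Insig2 (-1.22 ± 0.15, q = 6.34e-07). Acat2, Tm7sf2, Hsd17b7 and Stard4 passed neither limit.

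Levels per kb of exon, which allow genes to be compared, spanned a wide range in naive OL RNA. Hmgcs1 had 398 ± 54.4 CPM per kb (SD, n = 3), followed by Cyp51 (103 ± 15.1) and Sc5d (102 ± 17.1), which did not differ beyond their spread. Srebf2 (75.2 ± 3.62), Insig1 (73.5 ± 13.5), Fdft1 (69.5 ± 3.89) and Msmo1 (68.4 ± 9.72) formed the next set, again within their spread. The lowest were Insig2 (6.24 ± 0.93) and Tm7sf2 (2.6 ± 0.41). In naive total RNA the levels were 44.2 CPM per kb for Insig1 and 14.6 for Insig2.

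**Figure D1:**
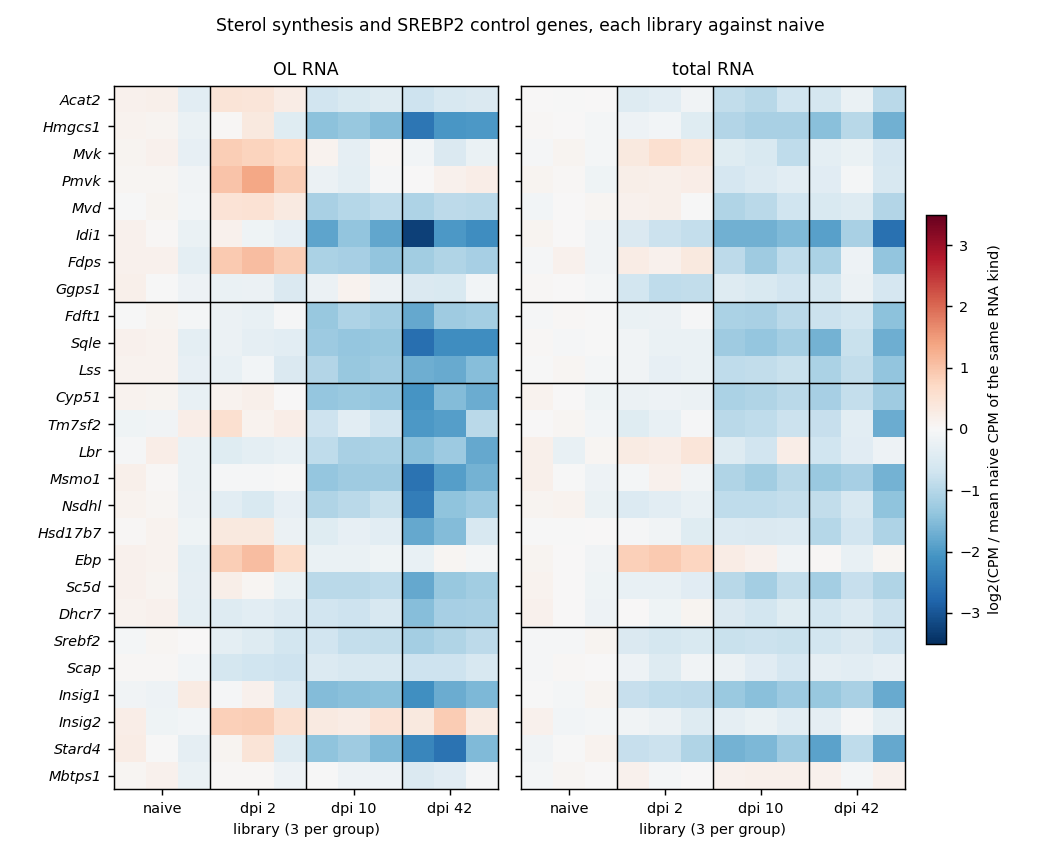
Log2 ratio of each gene's CPM to the mean of the 3 naive libraries of the same RNA kind (colour), for the 26 genes (rows, in pathway order with lines between steps, Stard4 among the SREBP2 genes) in the 12 OL and 12 total RNA libraries (columns). The OL libraries of dpi 10 have median ratios of -0.94 to -0.86 and those of dpi 42 of -1.59 to -1.15, while those of dpi 2 lie between -0.22 and 0.10.

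On dpi 2 the pathway as a whole had not fallen in OLs, and several genes were higher. The median OL change (SCI OL against naive OL RNA, log2) over the 26 genes was 0.00, as over all genes. Of the 26, 5 rose and 1 fell past 0.5 with q under 0.05, against 15.9% and 16.4% of all genes, so the share that rose was near the background and the share that fell was below it. Among those that rose were 3 mevalonate enzymes. Pmvk, which adds the last phosphate to mevalonate, had 64.8, 65.2 and 57.1 CPM in the naive OL libraries and 125, 160 and 113 on dpi 2. The groups did not overlap, and the OL change was 1.09 ± 0.13 (q = 1.38e-06). Fdps, which makes farnesyl diphosphate, went from 61.3, 61.6 and 43.4 CPM to 105, 118 and 101 (0.96 ± 0.21, q = 0.000893). Of its exon bases, 26.7% overlap Gm43738, a gene on the same strand. Mvk, the kinase before Pmvk, rose by 0.77 ± 0.15 (q = 0.000282) and Ebp by 0.86 ± 0.14 (q = 4.54e-05). The remaining gene that rose, Insig2, retains SREBP2 in the endoplasmic reticulum. Scap, the escort of SREBP2, was the gene that fell, from 220 to 243 CPM in naive OL RNA to 143 to 152 (-0.68 ± 0.09, q = 7.04e-06). Srebf2 had -0.47 ± 0.09 (q = 0.000282), short of the limit on size.

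With a correction for gene length and GC content, 2 genes in place of 5 were called higher in OLs on dpi 2. Mvk (0.34), Pmvk (0.36) and Ebp (0.38) were then not called, while Fdps and Insig2 were.

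By dpi 10 most of the pathway was lower in OLs, and on dpi 42 the median change over its genes was lower still. On dpi 10, 18 of the 26 genes fell and none rose, against 5.55% and 8.55% of all genes, with a median OL change of -0.92 (0.00 over all genes). On dpi 42, 20 fell and 1 rose, against 13% and 13.7% of all genes, with a median of -1.32. No gene rose on dpi 10 by DESeq2 either, and 1 was higher at an unadjusted p under 0.05 in edgeR. The 18 genes of dpi 10 all fell on dpi 42 too, where Tm7sf2 and Hsd17b7 joined them. These comparisons share the naive libraries. Without the libraries whose labels disagree, 20 genes fell on dpi 42 and 1 rose, the same numbers as with them. Leaving out any 1 library gave 17 to 18 falling genes on dpi 10 and 20 to 22 on dpi 42. OL replicates 1, 2 and 3 of dpi 42 had median log2 ratios to the naive OL mean of -1.59, -1.26 and -1.15. Their astrocyte marker sums were 10867, 8622 and 1655 CPM, and their OL marker sums 103467, 114504 and 137141. The part of these differences in the depth of the fall was not tested.

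Among the mevalonate enzymes, 5 of 8 fell at both times. Idi1, which isomerises isopentenyl diphosphate, changed most. Naive OL libraries had 38.5, 35.4 and 29.5 CPM of it and those of dpi 2 had 38.4, 30.9 and 28.1. On dpi 10 the values were 9.63, 13.2 and 9.78 CPM, and dpi 42 gave 3.60, 8.62 and 7.59. Both later groups lay entirely below the naive one, and the OL change was -1.67 ± 0.30 on dpi 10 (q = 0.000426) and -2.39 ± 0.31 on dpi 42 (q = 6.33e-06). Hmgcs1 had 2001, 1938 and 1540 CPM in naive OL RNA and 1895, 2334 and 1356 on dpi 2, which overlap. It then had 677, 731 and 639 CPM on dpi 10 and 317, 449 and 450 on dpi 42, with no overlap between these and the naive libraries. Its level on dpi 42 was 0.222 of naive (-2.17 ± 0.19, q = 5.91e-08). Mvd and Fdps fell by about as much on dpi 42 as on dpi 10 (Mvd -1.01 ± 0.13 and -0.97 ± 0.13, Fdps -1.21 ± 0.21 and -1.15 ± 0.21), and Acat2, a thiolase at the entry of the pathway, had -0.55 ± 0.16 and -0.60 ± 0.16. The dpi 10 call of Acat2 was lost in 6 of 35 alternatives, among them leaving out naive OL replicate 1 or 2 or dpi 10 OL replicate 1 or 2. The kinases Mvk and Pmvk and the branch enzyme Ggps1 did not pass the test at either time (-0.36 to 0.13).

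All 3 enzymes of squalene synthesis and ring closure fell. Sqle, the squalene epoxidase and a slow step of the pathway, had 356, 350 and 253 CPM in naive OL RNA and 276, 259 and 250 on dpi 2. These fell to 133, 126 and 127 CPM on dpi 10, while dpi 42 gave 51.7, 71.2 and 70.2. Naive and dpi 2 overlapped, and the later groups lay apart from them and from each other. The OL change was -1.31 ± 0.18 on dpi 10 (q = 2.84e-05) and -2.31 ± 0.19 on dpi 42 (q = 2.76e-08). Fdft1, the squalene synthase, had -1.19 ± 0.16 and -1.39 ± 0.16, and 18.3% of its exon bases overlap the opposite strand gene Ctsb. Lss had -1.19 ± 0.14 and -1.65 ± 0.14.

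Of the 9 sterol-modifying enzymes, 6 fell on dpi 10 and 8 on dpi 42. Cyp51, which removes a methyl group from lanosterol, had the largest fall on dpi 10 (-1.34 ± 0.13, q = 3.90e-07), from 501, 487 and 379 CPM to 179, 186 and 177. Msmo1, the C4 methyl oxidase, had the largest on dpi 42, from 471, 434 and 355 CPM in naive OL RNA to 69.6, 110 and 133 (-2.01 ± 0.18, q = 6.99e-08). Its levels on dpi 2 (406, 411 and 419 CPM) lay inside the naive range. Nsdhl and Hsd17b7, which act with Msmo1 in removing the C4 methyl groups, had -1.62 ± 0.22 and -1.19 ± 0.22 on dpi 42, and both sterol C14 reductases fell then (Tm7sf2 -1.54 ± 0.30, Lbr -1.49 ± 0.21). Ebp was the exception, with -0.20 ± 0.14 on dpi 10 and -0.07 ± 0.14 on dpi 42 (q = 0.767).

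**Figure D2:**
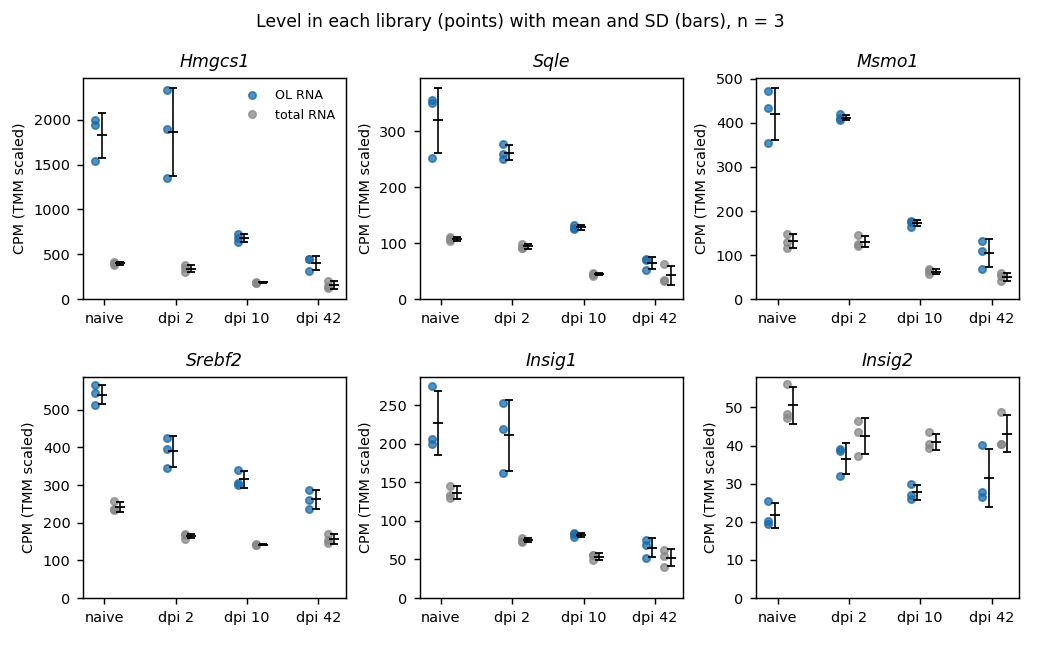
TMM-scaled CPM of 6 genes in each library (points) by group, with mean and SD (black bars, n = 3), for OL RNA (blue) and total RNA (grey) on linear axes from 0. Hmgcs1, Sqle, Msmo1, Srebf2 and Insig1 are lower in OL RNA on dpi 10 and dpi 42 than in every naive OL library, while Insig2 is higher in OL RNA on dpi 2 than in naive.

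The genes of SREBP2 control did not move together. Srebf2 stepped down over time, with 513, 565 and 544 CPM in naive OL RNA and 425, 397 and 346 on dpi 2. The dpi 10 libraries had 341, 305 and 300 CPM, those of dpi 42 236, 262 and 288. None of the 4 groups overlapped, and the OL change was -0.78 ± 0.09 on dpi 10 and -1.04 ± 0.09 on dpi 42 (q = 3.78e-06 and 7.45e-08). Insig1, itself a target of SREBP2 and a brake on it, changed most in this set, from 207, 200 and 276 CPM to 79.2, 82.7 and 84.6 on dpi 10, then 51.3, 68.4 and 75.9 at the last time (-1.47 ± 0.17 and -1.80 ± 0.17). On dpi 2 it had 219, 253 and 162 CPM, overlapping the naive libraries. Insig2, the other INSIG gene, went the other way. It had 25.4, 19.5 and 20.2 CPM in naive OL RNA and 38.7, 39.1 and 32.0 on dpi 2, with no overlap (0.75 ± 0.15, q = 0.000491). On dpi 10 it had 27.1, 26 and 29.99 CPM (0.35 ± 0.15, q = 0.121) and on dpi 42 27.7, 40.2 and 26.4 (0.54 ± 0.15, q = 0.00994). The call on dpi 2 held under all 35 alternative settings and that on dpi 42 under 23 of 35. The dpi 42 call was lost without dpi 42 OL replicate 2 or naive OL replicate 2 or 3. Leaving out any single OL library of dpi 2 or dpi 10 also lost it. So did the length and GC offset, a total RNA library as TMM reference, and a fit of the compared groups alone. The value ranged from 0.27 to 0.68. The dpi 2 and dpi 10 libraries are not in this comparison and enter it only through the scaling and fit shared by all libraries. Scap stayed lower (-0.53 ± 0.09 and -0.67 ± 0.09), and Mbtps1, the site-1 protease, did not pass the test (-0.30 ± 0.12 on dpi 42, q = 0.0585).

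Stard4, a sterol carrier that is a known SREBP2 target, followed the enzymes. Naive OL libraries had 49.1, 40.7 and 33.0 CPM, and dpi 2 gave overlapping values of 43.4, 55.5 and 29.9. On dpi 10 there were 15.5, 17.2 and 14.2 CPM, followed by 8.35, 6.83 and 13.9. The last 2 times lay below the naive libraries (-1.39 ± 0.27, q = 0.000993, and -2.08 ± 0.28, q = 9.78e-06).

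Other marker genes moved in the same OL libraries. Of 8 OL markers, 1 (Cldn11) rose on dpi 10 and 1 fell on dpi 42, with median OL changes of -0.17 and -0.26. The summed OL markers were 117048 to 157866 CPM in naive OL RNA, 139450 to 144852 on dpi 10 and 103467 to 137141 on dpi 42. Microglia and macrophage markers rose for 6 of 6 genes at each time, from 4.70 to 6.35 CPM summed in naive OL RNA to 72 to 93.6 on dpi 10 and 43.5 to 73.3 on dpi 42. Schwann cell markers summed to 1.6 to 634 CPM in naive, 852 to 1519 on dpi 10 and 1196 to 1389 on dpi 42, and 1 of 4 genes (Ncmap) rose at both times, while Pmp2 had no count in naive OL replicate 1. Astrocyte markers summed to 791 to 4488 CPM in naive and 1655 to 10867 on dpi 42, where 1 of 5 (Gfap) rose. The part of these cells in the result was not tested. In bulk RNA, fewer cells of a type and less RNA per cell cannot be told apart.

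Between dpi 2 and dpi 10, 18 of the 26 genes fell in OLs (7.92% of all genes did), with a median of -0.93. Fdps showed the largest step (-2.17 ± 0.22, q = 4.01e-07), followed by Idi1 (-1.58 ± 0.30) and Stard4 (-1.46 ± 0.27). Between dpi 10 and dpi 42, 6 genes fell further, against 3.04% of all genes. Sqle had -0.997 ± 0.18 (q = 0.00394) and kept its call under all 35 alternatives. Hsd17b7 had -0.82 ± 0.22, Hmgcs1 -0.75 ± 0.18, Msmo1 -0.72 ± 0.17, Dhcr7 -0.60 ± 0.13 and Sc5d -0.51 ± 0.15. Only 1 gene was called here without the libraries whose labels disagree, 2 without dpi 42 OL replicate 1 and 10 without dpi 42 OL replicate 3, so the count of this step depends on single libraries.

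**Figure D3:**
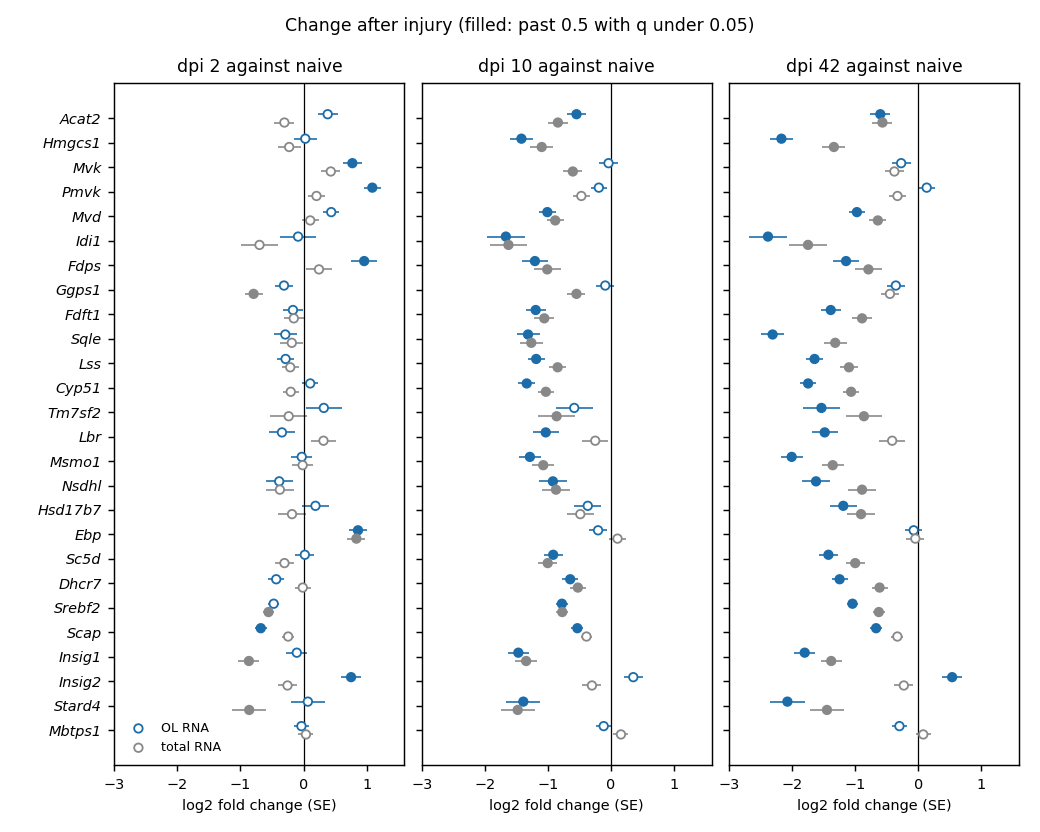
Log2 fold change against naive with its SE for the 26 genes on dpi 2, 10 and 42, in OL RNA (blue) and total RNA (grey), filled where the change passed 0.5 with q under 0.05. On dpi 10 and dpi 42 most genes lie left of 0 in both kinds of RNA. Of the 26, 16 and 18 were called lower in both (at most 5.55% and 7.76% of all genes were).

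Total RNA of the whole tissue showed the same direction at the later times. On dpi 2, 4 of the 26 genes fell and 1 rose, against 17% and 14.3% of all genes. Those that fell were Ggps1 (-0.79 ± 0.14), Srebf2 (-0.56 ± 0.09), Insig1 (-0.87 ± 0.17) and Stard4 (-0.86 ± 0.27), and Ebp rose (0.84 ± 0.14). On dpi 10, 19 fell (13.3% of all genes did), with a median of -0.85 against -0.10 over all genes. On dpi 42, 18 fell (7.76% of all genes), with a median of -0.83 against -0.08. No gene rose in total RNA at these times by edgeR or DESeq2, and none was higher at an unadjusted p under 0.05. The share of all genes that rose then is not given here. Idi1 had the largest fall at both times (-1.63 ± 0.30 and -1.75 ± 0.30). In OL and total RNA alike, 16 genes fell on dpi 10 and 18 on dpi 42. Of all genes, no more than the OL share of 5.55% fell in both on dpi 10. On dpi 42 it was no more than the total RNA share of 7.76%. In total RNA, microglia and macrophage markers summed to 80.2 to 96.4 CPM in naive, 963 to 1231 on dpi 10 and 626 to 900 on dpi 42, and neuron markers to 7274 to 7707, 3135 to 3590 and 3890 to 5914, and their part in the change of total RNA was not tested.

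Whether OL RNA changed more than total RNA was tested as differential OL enrichment, the OL change minus the total change. On dpi 2 it was higher for 4 genes and lower for none, against 7.57% and 5.68% of all genes. Insig2, whose total change was -0.25 ± 0.15, had 1.01 ± 0.22 (q = 0.00298) and kept this call under all 35 alternatives. Pmvk had 0.89 ± 0.19 (q = 0.00260) and kept it under 33. Insig1 (0.76 ± 0.23) and Acat2 (0.69 ± 0.22) kept it under 14 and 11. With the tissue pool as a block, which pairs each OL library with its total RNA, 2 genes were higher. At an unadjusted p under 0.05, 3 genes were lower, and DESeq2 called 0. On dpi 10 no gene differed in either direction, where 2.94% of all genes were lower and the share higher is not given here. At an unadjusted p under 0.05, 3 were higher and 1 was lower, and DESeq2 called 1 higher and 0 lower.

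On dpi 42 differential OL enrichment was lower for 5 genes and higher for 1, against 3.34% and 4.12% of all genes. The fall was deeper in OL than in total RNA for Lbr (-1.07 ± 0.29, q = 0.0244), Sqle (-0.99 ± 0.25, q = 0.0189), Hmgcs1 (-0.83 ± 0.25, q = 0.0486), Cyp51 (-0.68 ± 0.18, q = 0.0245) and Dhcr7 (-0.63 ± 0.18, q = 0.0315), and Insig2 was higher (0.77 ± 0.22, q = 0.0317). None of these 6 calls held in every alternative, and the number of genes called varied. Without the libraries whose labels disagree, 0 genes were lower and 2 higher, and with the pool as a block 2 were lower. Without dpi 42 OL replicate 3, 16 were lower, without naive OL replicate 3, 11, and without dpi 2 OL replicate 3, 8. The dpi 2 library is not in this comparison and enters it only through the scaling and fit shared by all libraries. Without dpi 42 total replicate 1, 3 were lower, and without dpi 42 total replicate 2 or naive total replicate 2 or 3, 2.

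OL enrichment after injury followed from these changes. On dpi 2, 22 of the 26 genes were enriched (20.5% of all genes), with a median of 1.45. By edgeR and DESeq2 none was depleted (1 at an unadjusted p under 0.05). The share of all genes depleted on dpi 2 is not given here. On dpi 10, 22 were enriched (21.2%), with a median of 1.14, and Insig2 was depleted (27.3% of all genes were). On dpi 42, 15 were enriched (21.1%) and 3 depleted (27.0%), with a median of 0.80. Sqle went from 1.57 ± 0.18 in naive cord to 0.58 ± 0.18 on dpi 42 and Hmgcs1 from 2.19 ± 0.19 to 1.35 ± 0.18, while Ebp kept 1.94 ± 0.15 and 1.91 ± 0.15. Ggps1, Tm7sf2 and Stard4 were the depleted ones. Without the libraries whose labels disagree, 20 were enriched on dpi 42 and 0 depleted. The 15 genes of dpi 42 were enriched in all 4 groups.

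**Figure D4:**
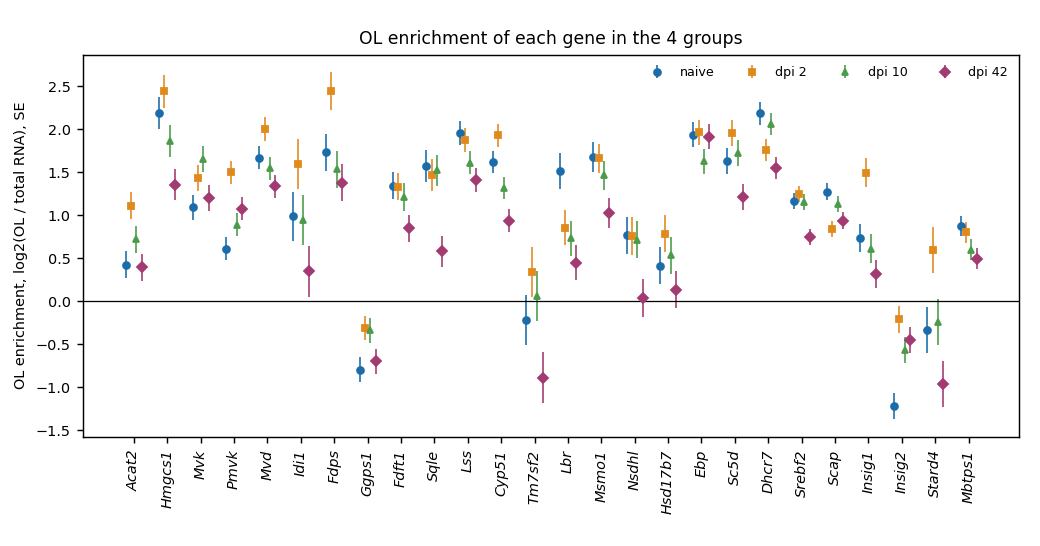
OL enrichment (log2 fold change of OL over total RNA) with its SE for each of the 26 genes in naive cord and on dpi 2, 10 and 42. Most genes lie above 0 in the 4 groups, with dpi 42 (diamonds) below naive (circles) for Hmgcs1, Sqle, Cyp51 and Lbr, and Insig2 and Ggps1 lie below 0.

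Other genes around the pathway were taken by list. Of 8 further genes of SREBP processing and sterol sensing, edgeR and DESeq2 called none in OLs on dpi 10 (1 was lower at an unadjusted p under 0.05) and 1 fell on dpi 42, Mbtps2, the site-2 protease (-0.96), with medians of -0.02 and -0.13. Srebf1, the gene of SREBP1, had 225, 263 and 355 CPM in naive OL RNA and 448, 327 and 302 on dpi 42, which overlap (0.35 ± 0.18, q = 0.135). Of 10 genes that use isoprenoids for dolichol, ubiquinone or protein prenylation, edgeR called none in OLs on dpi 10 or dpi 42 (medians 0.13 and -0.15). At an unadjusted p under 0.05, 1 was higher and 2 lower on dpi 10 and 2 higher on dpi 42, and DESeq2 called 0 and 1. On dpi 2, 2 of these 10 rose (Rce1 0.85 and Icmt 0.51) and 3 fell (Fnta, Fntb and Pggt1b, subunits of prenyltransferases, -0.93 to -0.52), against 15.9% and 16.4% of all genes.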

How the data were processed

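OL and total RNA of 12 tissue pools were sequenced (24 libraries). The authors aligned reads with STAR and counted them per gene, and the deposited values are raw counts with no normalization. The submitters' processing notes name FastQC 0.10.1 and HTSeq 0.10.0. The strand setting of the counting is not given in the sources used here, so how reads of overlapping genes were counted is not known.

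Genes with at least 10 counts over all libraries (17167) were tested with edgeR 4.0.16 (R 4.3.3, TMM scaling, quasi-likelihood F test, 8 groups in one model, Benjamini-Hochberg adjustment over all tested genes). A gene was called at an absolute log2 fold change over 0.5 with q under 0.05. CPM are TMM-scaled. On simulated counts with 200 changed genes among 16974, 144 were called. Libraries were grouped by their descriptions, and DESeq2 1.42.0 was an alternative. Pools were matched by tissue number in the column names. Deviations of OL and total RNA of a pool from their group means correlated at 0.130 to 0.240 in naive, 0.132 to 0.167 on dpi 2, 0.0415 to 0.131 on dpi 10 and -0.0424 to 0.00912 on dpi 42.

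The members and gene lists were chosen with earlier results of these data known. Values in every library were given for the gene of each step with the largest called OL change on dpi 10 or dpi 42 and for genes moving against their step, and those of Hmgcs1, Srebf2, Pmvk, Fdps, Scap and Srebf1 were added after values were seen. Alternatives were another scaling, filter or test, a length and GC offset, a fit of the compared groups alone, blocks, and leaving out libraries, and leaving out dpi 2 pool 2 was chosen after seeing the data. Some genes are not reported here.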

Additional observations from a re-analysis of the deposited data

Results flagged for a closer look

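For 10 results the OL change differed from the total RNA change by the test of the difference itself (edgeR interaction term, 3 libraries per group). On dpi 2, the OL change exceeded the total change for Insig2 (log2 difference 1.01), Pmvk (0.89), Insig1 (0.76) and Acat2 (0.69). Insig2 was higher on dpi 42 as well (0.77). On that day the OL change was lower than the total change for Lbr (-1.07), Sqle (-0.99), Hmgcs1 (-0.83), Cyp51 (-0.68) and Dhcr7 (-0.63). Of the 35 alternatives, the calls held in 35 for Insig2 and 33 for Pmvk on dpi 2, in 32 for Sqle and in 31 for both Cyp51 and Lbr. They held in 28 for Dhcr7, in 17 for both Hmgcs1 and Insig2 on dpi 42, and in 14 for Insig1 and 11 for Acat2. Most alternatives leave out 1 library, often one outside the comparison, so these tallies are a weak measure of support. On dpi 42, 0 genes were called lower without the libraries whose labels disagree. With only the compared groups fitted 1 was, and with the pool as a block 2 were.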

How the results depend on the processing

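Of 15 counts of called genes (lower, or higher in OL enrichment), 8 stayed within 1.5 times of their value in every alternative tried. Of the 15 counts in the opposite direction, 10 moved further in at least 1, such as the genes higher on dpi 2 in OLs (2 to 7), in total RNA (0 to 3) and in differential enrichment (1 to 5). The genes lower in OLs numbered 16 to 20 on dpi 10 and 19 to 23 on dpi 42, and 15 to 20 and 14 to 20 in total RNA. With library sizes alone, 2 genes fell in total RNA on dpi 2 and 14 were enriched on dpi 10, and Hsd17b7 reversed there (-0.045). This scaling moved the median of all genes by -0.57 to -0.50 in OL enrichment. With a total RNA library as TMM reference, which moved that median by -0.23 to -0.22 in differential OL enrichment, 3 genes fell in OLs on dpi 2, and differential enrichment was lower for 3, 1 and 11 genes on dpi 2, 10 and 42. With the length and GC offset, which moved the median by 0.28 to 0.32 in OL enrichment, 2 genes fell in OLs on dpi 2, 3 were lower in differential enrichment on dpi 42, 1 fell between dpi 10 and dpi 42, and Pmvk reversed in OLs on dpi 42 (-0.71). With only the compared groups fitted, the last 2 counts were each 1, and without the libraries of conflicting labels they were 0 and 1. Without dpi 2 pool 2, 1 gene was lower in differential enrichment on dpi 2. With tissue pool as replicate block, 2 were lower on dpi 42 and 2 higher on dpi 2. A block by replicate number, which marks no shared tissue across times, left 18 and 20 genes lower in OLs on dpi 10 and dpi 42 and 5 between them. Leaving out 1 library gave 1 to 3 genes lower in OLs on dpi 2, 2 to 10 between dpi 10 and dpi 42, and 0 to 3, 0 to 1 and 2 to 16 lower in differential enrichment on dpi 2, 10 and 42. Of 206 single calls, 143 held in every alternative. The causes were not tested. With 3 pools per group, differences smaller than the spread between pools were not detectable.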

Other observations

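Of 10 genes of sterol storage, hydroxylation and trafficking, 2 rose and 3 fell in OL RNA on dpi 2 (15.9% and 16.4% of all genes did), 1 rose and 1 fell on dpi 10 (8.55% and 5.55%), and 1 rose and 3 fell on dpi 42 (13.7% and 13%). Ch25h, which makes 25-hydroxycholesterol, was at 0 counts in the 3 OL libraries of naive cord and had 84 to 338 counts on dpi 2, 25 to 45 on dpi 10 and 16 to 26 on dpi 42. Against a floor of 3 counts per library, it was at least 55.1-fold, 10.5-fold and 6.01-fold higher in OL RNA at these times. The first of these limits rests on dpi 2 OL replicate 3 (12.9 CPM against 3.93 and 3.40) and is 29.9-fold without it. Total RNA, with 0.39, 0 and 1.84 CPM in naive cord, rose as well, and OL RNA lay below total RNA in the 3 injured groups. The microglia and macrophage markers, which rose in the same OL libraries, were also lower in OL than in total RNA, and their part in this result was not tested.

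Lipa, the lysosomal acid lipase that releases cholesterol from its esters, moved in opposite directions in the RNA kinds. In OL RNA it had 63.3, 73.8 and 56.3 CPM in naive and 39.1, 31.1 and 35.7 on dpi 2 (-0.87 ± 0.16), and in total RNA it rose by 1.04 ± 0.16. The differences between these changes were -1.90 ± 0.22, -2.32 ± 0.22 and -1.86 ± 0.22 at the 3 times (edgeR interaction term, adjusted p = 1.04e-05, 1.52e-06 and 4.22e-05). Npc2 and Soat1, which export lysosomal cholesterol and esterify it, rose in total RNA at all 3 times. Osbpl1a, of the oxysterol-binding family, fell in both kinds at all 3 times (-1.31, -0.65 and -0.83 in OL RNA).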
